A study of Homo sapiens with 18 samples.

Results

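Interferon-stimulated genes were followed in head and neck squamous carcinoma cells treated with hepatocyte growth factor (HGF), the ligand of the receptor tyrosine kinase MET. The list held 44 genes of 19901 in the count table, chosen by gene symbol as well-known targets of interferon signalling, with the guanylate-binding proteins left out. Each symbol matched 1 row, and all 44 genes passed the filter on low counts that left 15475 genes for testing. The 18 libraries came from 3 established lines: Detroit 562 (pharynx, taken from a metastasis), FaDu (hypopharynx, primary tumour) and SCC-9 (tongue, primary tumour). Each line gave 3 untreated control libraries and 3 libraries of cells given 50 ng/mL HGF, and the lines were otherwise unmodified. The duration is 16 h in the records of the samples and 48 h in that of the series. The methods of the study give 16 h for the sequenced cells. Detroit 562 and FaDu were grown in MEM-alpha, and SCC-9 in DMEM/F12 with hydrocortisone, so medium and line cannot be told apart in a comparison of SCC-9 with the others. Each tumour site was represented by a single line.

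Type I and type III interferons bind receptors that switch on the kinases JAK1 and TYK2. After type I or type III interferon, a complex that holds STAT2 and IRF9 binds the interferon-stimulated response element (ISRE). Interferon gamma acts through another element, the gamma-activated site (GAS). IRF1 is itself a GAS target and a transcription factor that binds ISRE-like sequences. Many of the induced proteins sense or block viral RNA, and carcinoma cells often carry a basal level of them without any infection.

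The core letters of these elements were looked up in RefSeq promoter sequences of GRCh38.p14, which run from 250 bases before to 50 bases after each transcript start. For 35 of the 44 genes a promoter was found, 47 promoters in all, with DDX58 matched under its current symbol RIGI. The genes without a matched promoter were IFIT2, IFITM2, MX2, OAS2, OASL, IRF7, USP18, DHX58 and TRIM22. The ISRE core, taken as GAAA, any 2 bases and GAAA again and read on both strands, was present in 27 of the 47 promoters (57.4%) and in 3.57% of all 35116 promoters of that length. The GAS core TTCNNNGAA, whose reverse complement is the same pattern, was present in 13 of the 47 (27.7%) and in 7.66% of all promoters. The 2 patterns can overlap. The first promoter of 5 genes is printed here because these genes differ most plainly in the values that follow: IRF1, PARP14 and SAMD9L fell in HGF-treated Detroit 562, IFIT1 was called there only in a fit with paired replicates, and IFI27 differed most between untreated lines. Capitals mark the matches, and an ISRE core on the opposite strand reads as TTTC, any 2 bases and TTTC.
IRF1: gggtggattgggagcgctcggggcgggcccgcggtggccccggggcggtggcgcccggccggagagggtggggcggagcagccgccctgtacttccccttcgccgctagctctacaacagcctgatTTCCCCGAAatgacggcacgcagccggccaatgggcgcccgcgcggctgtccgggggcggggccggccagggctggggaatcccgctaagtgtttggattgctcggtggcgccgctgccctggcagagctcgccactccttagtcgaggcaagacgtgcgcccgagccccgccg
PARP14: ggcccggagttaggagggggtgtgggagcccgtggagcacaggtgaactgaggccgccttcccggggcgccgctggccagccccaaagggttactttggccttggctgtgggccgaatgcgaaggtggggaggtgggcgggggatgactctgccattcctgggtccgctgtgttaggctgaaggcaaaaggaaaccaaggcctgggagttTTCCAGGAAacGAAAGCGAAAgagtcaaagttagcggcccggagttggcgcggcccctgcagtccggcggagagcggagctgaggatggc
SAMD9L: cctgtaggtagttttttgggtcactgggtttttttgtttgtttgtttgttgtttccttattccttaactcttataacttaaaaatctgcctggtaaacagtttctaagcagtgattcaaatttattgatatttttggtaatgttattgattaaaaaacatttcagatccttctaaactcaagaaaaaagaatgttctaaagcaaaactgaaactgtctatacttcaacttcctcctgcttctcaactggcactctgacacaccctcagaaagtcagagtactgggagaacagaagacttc
IFIT1: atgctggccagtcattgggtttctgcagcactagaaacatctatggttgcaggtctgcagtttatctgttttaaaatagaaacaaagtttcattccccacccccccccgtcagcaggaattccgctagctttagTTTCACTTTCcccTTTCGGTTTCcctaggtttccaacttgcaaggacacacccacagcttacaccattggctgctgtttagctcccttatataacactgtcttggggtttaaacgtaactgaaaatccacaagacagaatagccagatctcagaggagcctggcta
IFI27: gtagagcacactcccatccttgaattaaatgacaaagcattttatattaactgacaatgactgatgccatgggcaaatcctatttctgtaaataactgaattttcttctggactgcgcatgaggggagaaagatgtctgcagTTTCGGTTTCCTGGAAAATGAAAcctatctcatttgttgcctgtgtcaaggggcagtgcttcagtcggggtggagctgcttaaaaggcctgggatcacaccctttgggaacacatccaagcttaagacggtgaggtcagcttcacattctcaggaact
These windows lie at chr5:132490724-132491023 (- strand) for IRF1, chr3:122680589-122680888 (+ strand) for PARP14, chr7:93148336-93148635 (- strand) for SAMD9L, chr10:89392373-89392672 (+ strand) for IFIT1 and chr14:94110486-94110785 (+ strand) for IFI27. IRF1 carried a GAS core from base -124 to -116 relative to the start and no ISRE core. PARP14 carried a GAS core from -40 to -32 and an ISRE core from -29 to -20. IFIT1 carried ISRE cores from -116 to -107 and from -103 to -94, both on the opposite strand, and no GAS core. In IFI27 a GAS core from -101 to -93 overlapped ISRE cores on either side. Neither pattern was in the SAMD9L window.

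The libraries held between 35304770 and 44003970 counts on genes, with a median of 40138919. Levels are given as CPM, counts scaled to a common library size after trimmed mean of M values (TMM) normalization. All 7 epithelial marker genes passed the filter. Of the 6 leukocyte markers 3 did not, PTPRC and CD3E among them, nor did COL3A1 and PDGFRB of the 5 fibroblast markers. Others on these lists were present: CD14 had 8.01 to 9.81 CPM and COL1A1 65.4 to 86.6 CPM in SCC-9 controls, and HLA-DRA 2.72 to 4.59 CPM in Detroit 562 controls. FaDu replicate 3 stood apart for the interferon-stimulated genes. Their summed level was 1795, 1826 and 2913 CPM in FaDu controls 1, 2 and 3 and 1699, 1796 and 2665 CPM in FaDu HGF 1, 2 and 3. In Detroit 562 the sum was 1124, 1088 and 873 CPM in controls and 765, 810.2 and 588 CPM with HGF, so every treated library lay below every control. In SCC-9 it was 1425, 1684 and 1913 CPM in controls and 1260.3, 1521 and 1545 CPM with HGF, with overlap between the groups. In bulk RNA, fewer cells expressing a gene and less RNA per cell cannot be told apart.

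In Detroit 562, HGF lowered the listed interferon-stimulated genes as a broad but incomplete set. With calls made at adjusted p under 0.1 and an absolute log2 step of 0.4 or more, edgeR called 20 of the 44 genes lower and none higher, against 11.7% of all genes called lower and 6.16% called higher. DESeq2 with its fold change prior also called 20 lower and 0 higher, against 11.7% and 5.9% of all genes. The median log2 fold change over the 44 genes was -0.54, against -0.01 over all genes tested. Of the 44 estimates 40 were negative, against 50.7% of all genes. All 3 treated libraries lay below all 3 controls for 27 of the 44 genes, against 20.1% of all genes, and for none of the 44 did all treated libraries lie above the controls, against 18.1%. By pairs, 35 genes were lower with HGF in 3 of 3 pairs, against 32.3% of all genes, and none was higher in all, against 30.6%. The called genes were spread over 9 of the 11 roles, and the IFIT and IFITM families had none. The numbers of the replicates were taken to pair control and treated libraries. With the pair as a block 27 genes were called lower and none higher, against 14.4% and 7.13% of all genes. The genes added by the block were IFI6, IFIT1, IFIT3, IFITM1, OASL, RSAD2 and IRF9. Marker sums moved too: the fibroblast markers summed to 29.75 to 54.23 CPM in Detroit 562 controls and 14.97 to 27.56 CPM with HGF, and the epithelial markers to 5255 to 7510 CPM and 3444 to 5047 CPM. The leukocyte markers summed to 3.15 to 5.08 CPM in the controls and 2.43 to 3.86 CPM with HGF, and the 3 endothelial markers to 1.16 to 2.9 CPM and 0.49 to 1.06 CPM, without overlap. Within the epithelial list EPCAM went the other way, with 416 to 433 CPM in the controls and 483 to 513 CPM with HGF. The part of these lists in the result was not tested.

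**Figure D1:**
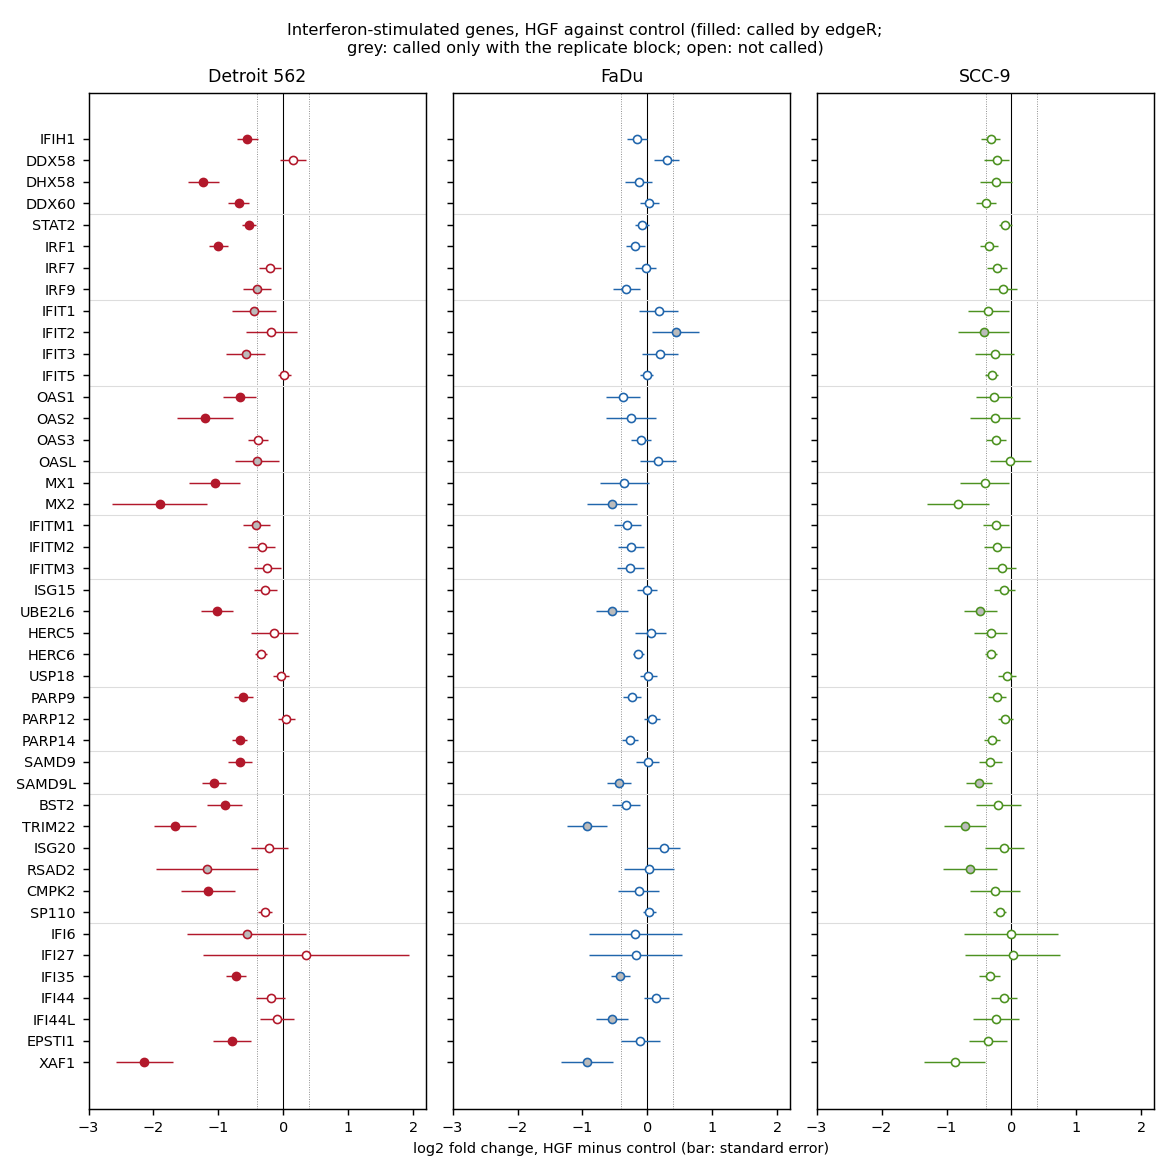
Log2 fold change of HGF-treated against control libraries for each of the 44 interferon-stimulated genes in the 3 lines, 3 libraries a group, with bars for the standard error and dotted lines at 0.4 on either side of 0. Filled points were called by edgeR, grey points only with the replicate block, and open points by neither. The 20 filled points all lie to the left of 0 in the Detroit 562 panel.

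Among the transcription factors, IRF1 (chr5:132481609-132490798) had the smallest p of the 44 genes in Detroit 562. Its level was 68.6, 65.6 and 46.6 CPM in Detroit 562 controls 1, 2 and 3 and 33.2, 35.0 and 22.0 CPM with HGF. Each treated library had about the same step below its control and the groups did not overlap. The log2 fold change was -1.001 (SE 0.146, edgeR adjusted p = 0.000653, lower in 3 of 3 pairs). STAT2 (chr12:56341597-56360155), which supplies the transactivation domain of the ISRE-binding complex, had 40.0, 37.4 and 32.9 CPM in controls and 26.0, 25.7 and 24.4 CPM with HGF. The treated values were close together and all below the lowest control, with a log2 fold change of -0.54 (SE 0.109, adjusted p = 0.00345). IRF9, the DNA-binding partner of STAT2, had a log2 fold change of -0.41 with an adjusted p of 0.179, or 0.00283 with the block. IRF9 lies within the extent of another gene on its strand, and reads in both were counted for both. IRF7, the factor that amplifies interferon alpha transcription, had 5.00 to 6.03 CPM in controls and 4.34 to 5.66 CPM with HGF and was not called.

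Of the 4 RNA sensors 3 fell. DHX58 (chr17:42101404-42112733), which encodes LGP2, had 4.24, 4.67 and 3.69 CPM in Detroit 562 controls and 1.81, 2.19 and 1.34 CPM with HGF. The highest treated library was well under the lowest control, and the log2 fold change was -1.24 (SE 0.238, adjusted p = 0.00273). IFIH1, which encodes the sensor MDA5 of long double-stranded RNA, fell by 0.55 on the log2 scale (adjusted p = 0.0189), and the helicase gene DDX60 fell by 0.69 (adjusted p = 0.00744). DDX58, which encodes RIG-I, the sensor of RNA with free phosphate ends, went against the others. Its level was 13.3, 12.8 and 12.2 CPM in controls and 13.2, 15.5 and 13.7 CPM with HGF, a log2 fold change of 0.15 that was not called (adjusted p = 0.641).

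SAMD9 and SAMD9L are neighbours on chromosome 7 and encode related proteins that restrict poxviruses. SAMD9L (chr7:93130055-93148369) had 37.8, 35.3 and 28.5 CPM in Detroit 562 controls and 15.4, 19.1 and 13.7 CPM with HGF. The 2 ranges were far apart, with a log2 fold change of -1.07 (SE 0.185, adjusted p = 0.00156). SAMD9 had 96.2 to 124 CPM in controls and 62.0 to 77.2 CPM with HGF (log2 fold change -0.66, adjusted p = 0.0163). In the ADP-ribosyltransferase family, PARP14 (chr3:122680618-122730840), with macrodomains, had 79.0, 78.7 and 61.9 CPM in controls and 44.8, 50.9 and 41.8 CPM with HGF. Its control replicate 3 was the lowest of the controls and still above all treated libraries. The log2 fold change was -0.68 (SE 0.121, adjusted p = 0.00197). PARP9, the partner of the ubiquitin ligase DTX3L, fell by 0.62 on the log2 scale (adjusted p = 0.00627), while PARP12, which associates with stress granules, had a log2 fold change of 0.05 and was not called.

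TRIM22 (chr11:5689689-5737089), a RING-domain restriction factor, had 13.0, 11.8 and 7.16 CPM in Detroit 562 controls and 3.17, 4.91 and 1.95 CPM with HGF. Replicate 3 was the lowest in both groups and the groups did not overlap. The log2 fold change of -1.67 (SE 0.323, adjusted p = 0.00282) was among the largest of the list. BST2, which encodes the virion tether tetherin, fell by 0.91 on the log2 scale (adjusted p = 0.0249), and the mitochondrial nucleotide kinase CMPK2 by 1.16 (adjusted p = 0.0502). RSAD2, which encodes viperin and lies next to CMPK2, had 5 to 16 reads in the controls and 4 to 7 with HGF, and its log2 fold change of -1.18 was called only with the block (adjusted p = 0.287, with the block 0.0425). SP110, a nuclear body protein, passed the adjusted p with a smaller step of -0.28, and the exonuclease gene ISG20 was not called.

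XAF1 (chr17:6755447-6775647), named for its binding of the apoptosis inhibitor XIAP, had the largest step. It had 2.52, 2.50 and 1.72 CPM in Detroit 562 controls and 0.421, 0.795 and 0.304 CPM with HGF, from 64 to 107 reads and from 10 to 28 reads. No treated library reached 1 CPM, and the log2 fold change was -2.14 (SE 0.438, adjusted p = 0.0036). IFI35 (chr17:43006725-43014456), whose product pairs with NMI, had 15.9, 15.8 and 12.6 CPM in controls and 11.2, 8.77 and 6.72 CPM with HGF. Its treated libraries were spread but all below the lowest control, with a log2 fold change of -0.73 (SE 0.15, adjusted p = 0.0036). EPSTI1 fell by 0.79 on the log2 scale (adjusted p = 0.0612). IFI44 and IFI44L, neighbours on chromosome 1, did not follow: their log2 fold changes were -0.20 and -0.10, with overlapping groups. IFI27 was near the floor of detection in this line, with 18 to 40 reads per library.

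**Figure D2:**
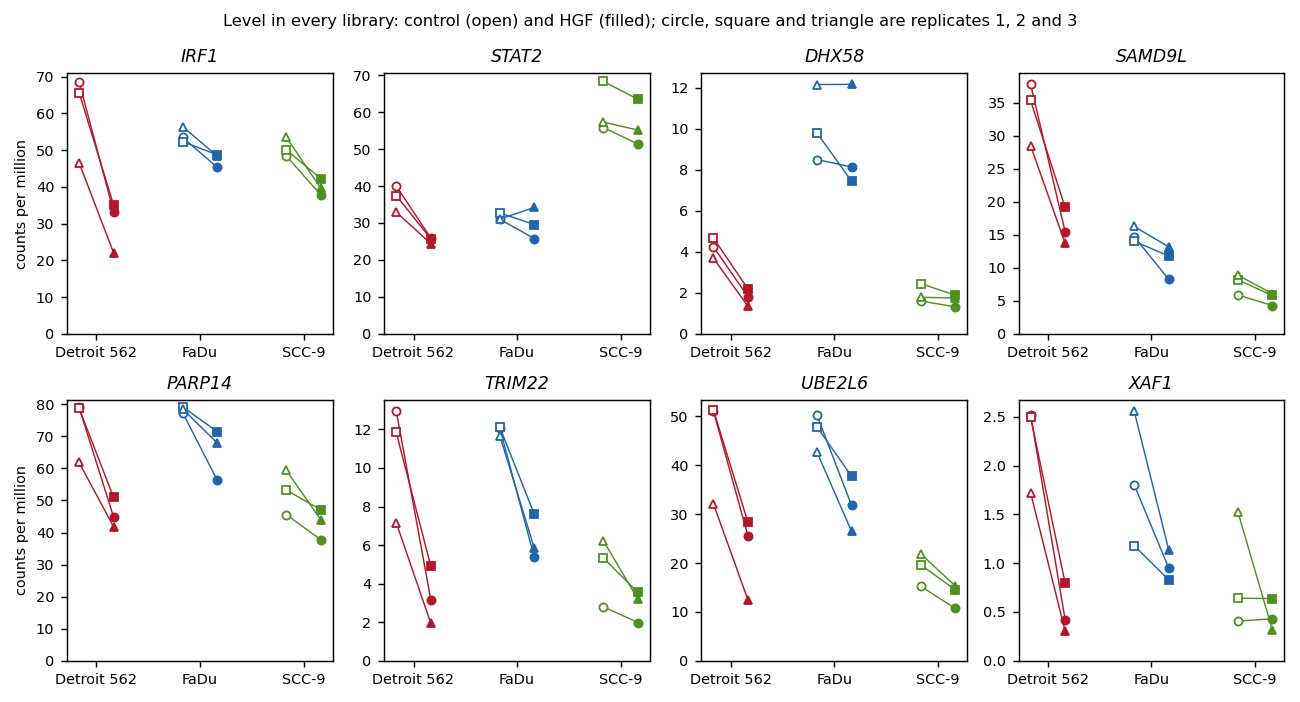
Level in CPM (vertical axis, from 0) of 8 interferon-stimulated genes in all 18 libraries. Open symbols are controls, filled symbols HGF-treated cells, and lines join libraries with the same replicate number. In Detroit 562 every filled symbol lies below every open one for all 8 genes.

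The oligoadenylate synthetase family and the GTPases gave a graded picture in Detroit 562. OAS1 and OAS2, which make an oligoadenylate messenger when they meet double-stranded RNA, fell by 0.67 and 1.20 on the log2 scale (adjusted p = 0.0642 and 0.051). OAS3, the highest of the family in this line per kilobase of exon, had 91.2 to 98.4 CPM in controls and 60.8 to 83.6 CPM with HGF, and its step of -0.39 stayed just short of the fold threshold although its adjusted p was 0.0674. OASL, which lacks synthetase activity, had a step of -0.41 that was called only with the block (adjusted p = 0.403, with the block 0.00285). MX1 and MX2, dynamin-like GTPases that block viral nucleocapsids, fell by 1.06 and 1.91 (adjusted p = 0.0588 and 0.0642). MX2 rested on 5 to 19 reads in the controls and 1 to 4 with HGF.

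Genes of ISG15 conjugation moved unequally in Detroit 562. UBE2L6 (chr11:57551656-57568284), the conjugating enzyme for ISG15, had 51.1, 51.3 and 32.1 CPM in controls and 25.5, 28.3 and 12.4 CPM with HGF. The treated libraries were all below the lowest control and the log2 fold change was -1.02 (SE 0.249, adjusted p = 0.00856). ISG15 itself, a ubiquitin-like protein, had 12.7, 11.5 and 9.32 CPM in controls and 10.3, 9.54 and 7.82 CPM with HGF, which overlapped (log2 fold change -0.28, adjusted p = 0.254). HERC6 passed the adjusted p (0.0145) with a step of -0.34, the ISG15 ligase gene HERC5 had -0.14, and USP18, the ISG15 protease that also dampens the interferon receptor, had -0.04. None of the IFIT genes, whose products bind viral RNA, was called without the block. IFIT3 and IFIT1 had log2 fold changes of -0.58 and -0.45, IFIT2 had -0.18, and IFIT5 had 0.01. The IFITM genes, which block virus entry at membranes, had log2 fold changes of -0.42, -0.34 and -0.25 for IFITM1, IFITM2 and IFITM3, and their groups overlapped. IFITM1 lies within the extent of IFITM2, so the counts of these neighbours share reads.

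Leaving out 1 library at a time gave 13 to 23 genes called lower in Detroit 562, while the share of all genes called lower ran from 6.67% to 14.2%. The count was 13 without control 2, against 8.19% of all genes, 14 without control 1 or HGF 3, against 6.67% and 7.99%, and 23 without control 3, against 14.2%. IFIH1, DDX60, DHX58, STAT2, IRF1, PARP9, PARP14, SAMD9, SAMD9L, UBE2L6, TRIM22, IFI35 and XAF1 were called in each of these 6 fits.

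The motif content was set beside these changes as a description. Of the 23 genes with an ISRE core in a promoter, 8 were called lower in Detroit 562 (34.8%, median log2 fold change -0.45), and of the 12 without one, 8 were called (66.7%, median -0.70). For the GAS core, 8 of the 12 genes with it (66.7%, median -0.68) and 8 of the 23 without it (34.8%, median -0.45) were called. Among those with the smallest p were IRF1, with a GAS core and no ISRE core in the window printed above, SAMD9L, with neither, and PARP14, with both. IFIT1, with a pair of ISRE cores, was not called without the block.

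**Figure D3:**
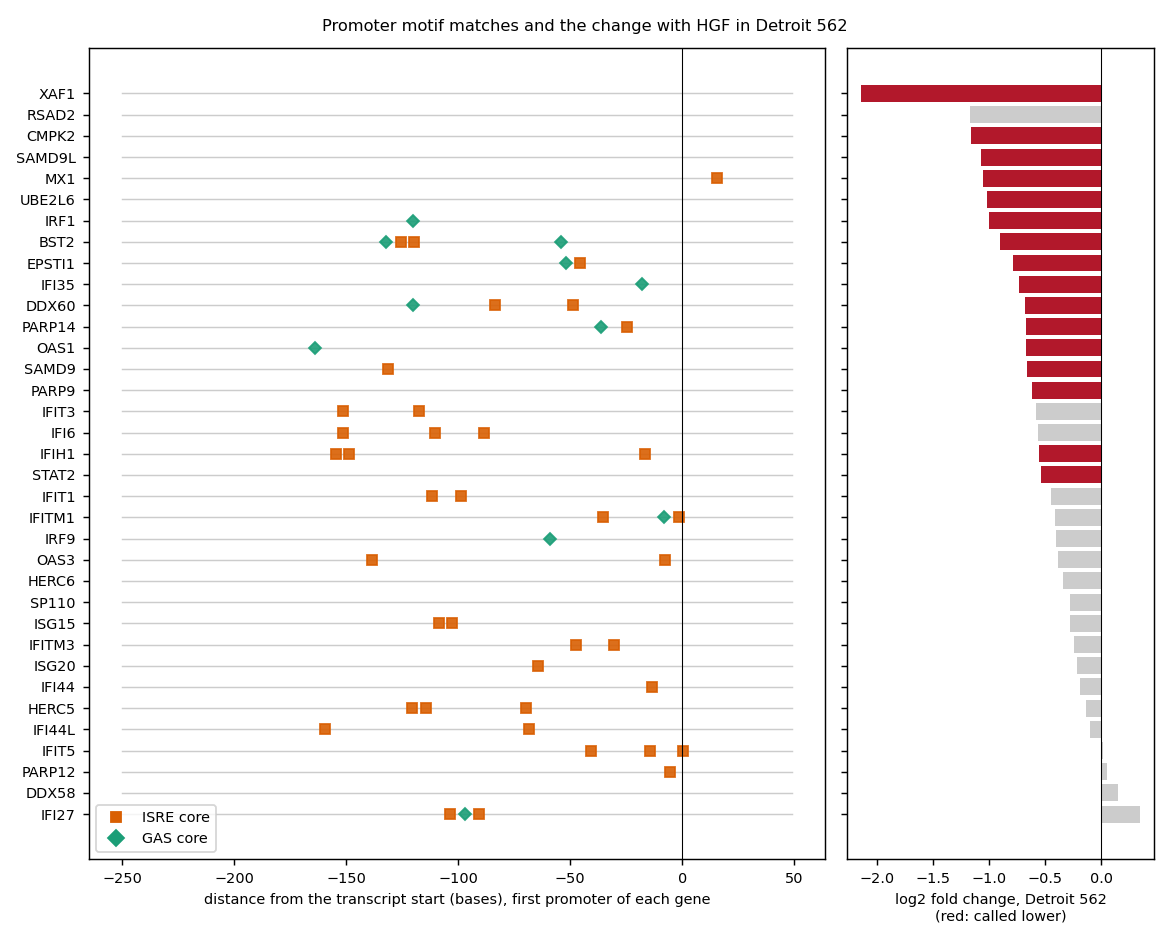
Left, motif matches in the first RefSeq promoter of 35 genes by distance from the transcript start in bases, squares for the ISRE core and diamonds for the GAS core. Right, log2 fold change with HGF in Detroit 562, red where called lower. Genes are ordered by that change, and XAF1 at -2.14 stands at the top.

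In FaDu, edgeR without the block called none of the 44 genes, against 0% of all genes called lower and 0.0258% called higher. At an unadjusted p below 0.05 there were 7 of the 44, against 8.06% of all genes, and DESeq2 with its prior called 0, against 0.426% of all genes. The median log2 fold change was -0.14 and 30 of 44 estimates were negative, against 51.1% of all genes. With the block 7 genes were called lower, against 3.6% of all genes, and IFIT2 was called higher, against 2%. All treated libraries lay below all controls for 9 genes, against 5.36% of all genes, and above them for none, against 4.05%.

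TRIM22 had 12.1, 12.1 and 11.7 CPM in FaDu controls and 5.36, 7.59 and 5.83 CPM with HGF. The controls were nearly equal and the treated libraries far below them, with a log2 fold change of -0.93 (SE 0.307, adjusted p = 0.519, with the block 0.00036). UBE2L6 had 50.2, 47.8 and 42.7 CPM in controls and 31.8, 37.8 and 26.5 CPM with HGF, again without overlap (log2 fold change -0.55, block adjusted p = 0.000602). SAMD9L had 14.7, 14.0 and 16.2 CPM in controls and 8.25, 11.8 and 13.2 CPM with HGF. Its highest treated library was just below the lowest control (log2 fold change -0.44, block adjusted p = 0.0114). IFI35 had 12.7, 11.4 and 12.6 CPM in controls and 8.32, 9.13 and 10.1 CPM with HGF, without overlap (log2 fold change -0.42, block adjusted p = 0.00785). XAF1 had 1.80, 1.18 and 2.56 CPM in controls and 0.951, 0.830 and 1.14 CPM with HGF, and the highest treated value was just short of the lowest control (log2 fold change -0.93, block adjusted p = 0.0587). IFI44L had 9.69, 9.54 and 15.4 CPM in controls and 6.65, 6.81 and 10.3 CPM with HGF. MX2 had 1.57, 1.73 and 2.89 CPM and 0.835, 1.43 and 1.98 CPM. In both the groups overlapped through replicate 3, although each pair stepped down (log2 fold change -0.54 each, block adjusted p = 0.00241 for IFI44L and 0.0547 for MX2).

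IFIT2 moved the other way in FaDu. It had 33.8, 26.8 and 80.6 CPM in controls and 48.3, 36.0 and 107 CPM with HGF. Each treated library was above its own control, but control 3 was above HGF 1 and 2, so the groups overlapped. The log2 fold change was 0.44 (SE 0.363, adjusted p = 0.739, with the block 0.00062), and without HGF replicate 3 it was -0.15 in the fit without the block. IFIT1, IFIT3, OASL, IFI44 and DDX58 were also higher with HGF in 3 of 3 FaDu pairs, with log2 fold changes of 0.17, 0.20, 0.16, 0.13 and 0.30 that were not called. In all 6 genes were higher in every FaDu pair, against 20% of all genes, and 23 were lower in every pair, against 23.3%.

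In SCC-9 no gene of the list was called by edgeR without the block, against 0% of all genes, or by DESeq2 with its prior, against 0.123%. At an unadjusted p below 0.05 there were 9 of the 44, against 4.14% of all genes. The estimates leaned to one side: 43 of 44 were negative, against 49.2% of all genes, with a median of -0.25. By pairs, 31 genes were lower in 3 of 3, against 24.6% of all genes, with IFI27 alone higher in all, against 23.9%. All treated libraries lay below all controls for 9 genes, against 9.12%, and above them for none, against 8.3%. The leukocyte markers summed to 9.63 to 11.29 CPM in SCC-9 controls and 8.05 to 9.42 CPM with HGF, without overlap, and their part in the result was not tested. With the block, 5 genes were called lower and none higher, against 1.41% and 0.562% of all genes. SAMD9L had 5.88, 8.17 and 8.87 CPM in SCC-9 controls and 4.28, 5.81 and 6.09 CPM with HGF. TRIM22 had 2.80, 5.32 and 6.22 CPM and 1.98, 3.54 and 3.19 CPM, and UBE2L6 had 15.3, 19.7 and 21.9 CPM and 10.7, 14.5 and 15.3 CPM. In all 3 genes control replicate 1 was low, so the groups touched or overlapped although every pair stepped down. Their log2 fold changes were -0.50, -0.72 and -0.48, with block adjusted p of 0.034, 0.0242 and 0.00917. RSAD2 had 1.70, 2.45 and 3.44 CPM in controls and 1.22, 1.42 and 2.21 CPM with HGF (log2 fold change -0.64, block adjusted p = 0.0553). IFIT2, higher with HGF in FaDu, had 9.78, 10.5 and 13.4 CPM in SCC-9 controls and 6.62, 8.55 and 9.80 CPM with HGF. Its treated libraries were each below their own control (log2 fold change -0.43, block adjusted p = 0.00916). IRF1, not called in SCC-9, had 48.4, 50.0 and 53.5 CPM and 37.8, 42.3 and 39.6 CPM, without overlap and with a step of -0.34 that was short of the fold threshold.

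SAMD9L, UBE2L6 and TRIM22 were the 3 genes of the list called lower with the block in all lines, against 0.517% of all genes. IRF1 and IFI35 were the 2 for which all treated libraries lay below all controls in each line, against 0.627% of all genes. Averaged over the lines, 14 of the 44 genes were called lower and none higher, against 4.88% and 2.02% of all genes. With the block 16 were lower and none higher, against 6.23% and 2.57%. The 14 genes called without it were IRF1, DHX58, PARP14, SAMD9L, TRIM22, BST2, UBE2L6, OAS1, OAS2, MX1, MX2, IFI35, EPSTI1 and XAF1. TRIM22 fell by 1.11 on the log2 scale (SE 0.184, adjusted p = 0.00271), SAMD9L by 0.67 (SE 0.11, adjusted p = 0.00252) and UBE2L6 by 0.68 (SE 0.144, adjusted p = 0.00671). Leaving out 1 library gave 8 to 17 genes, against 3.59% to 6.24% of all genes, with 8 without SCC-9 control 3 or SCC-9 HGF 1 and 9 without Detroit 562 control 2 or FaDu HGF 1.

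The difference in response between lines was tested by interaction contrasts at an adjusted p below 0.1. Without the block none of the 44 genes passed for Detroit 562 against FaDu, Detroit 562 against SCC-9 or FaDu against SCC-9, where 0.239%, 0.924% and 0% of all genes did. At an unadjusted p below 0.05 there were 8, 5 and 0 of the 44 genes, against 11.6%, 15.4% and 2.18% of all genes. DESeq2 with its prior called IRF1, DHX58 and DDX60 for Detroit 562 against FaDu and IRF1 and DHX58 for Detroit 562 against SCC-9, and none for FaDu against SCC-9, where 1%, 2.2% and 0.0323% of all genes were called (lower in the first 2 contrasts, either way in the last). Without Detroit 562 control 3, edgeR called 2 genes in each of the Detroit 562 contrasts, where it called 1.22% and 3.39% of all genes in that direction. With the block the counts were much larger: 26 genes had a more negative response in Detroit 562 than in FaDu and 1, IFI44L, a less negative one, against 8.98% and 10.1% of all genes. Against SCC-9, 20 genes had a more negative response in Detroit 562 and 2 a higher one, against 13.2% and 13.8%. These 2 were IFIT5 and DDX58, with log2 fold changes of 0.01 and 0.15 in Detroit 562. For FaDu minus SCC-9 the block called 4 genes with a positive difference, IFIT1, IFIT2, IFIT3 and DDX58, and none with a negative one, against 0.808% and 0.511%. For IRF1 the responses of -1.001, -0.19 and -0.34 in Detroit 562, FaDu and SCC-9 gave differences of -0.81 (SE 0.204, adjusted p = 0.146, with the block 4.12e-05) and -0.66 (SE 0.204, adjusted p = 0.169, with the block 8.36e-05). For TRIM22, called with the block in every line, the differences of -0.74 and -0.95 had adjusted p of 0.534 and 0.332, or 0.0234 and 0.0061 with the block.

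Untreated lines differed in the level of these genes by log2 differences as large as -8.28 for IFI27 (-6.81 without FaDu control 3), while the step with HGF was largest at -2.14 for XAF1 in Detroit 562. FaDu had the highest mean for 27 of the 44 genes, SCC-9 for 10 and Detroit 562 for 7, and Detroit 562 had the lowest mean for 26. These ranks were not computed over all genes, so they have no background beside them. Between untreated Detroit 562 and FaDu, 29 genes were lower in Detroit 562 and 2 higher, against 29.8% and 31.2% of all genes. Between untreated SCC-9 and FaDu, 27 were lower in SCC-9 and 10 higher, against 30.7% and 33.5%. Between untreated Detroit 562 and SCC-9, 20 were lower in Detroit 562 and 13 higher, against 33.9% and 31.4%. The control libraries are shared by these comparisons and by those with HGF.

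IFI27, a mitochondrial protein gene, differed most. It had 0.471, 0.761 and 0.485 CPM in untreated Detroit 562, 84.3, 43.5 and 406 CPM in FaDu and 31.9, 51.3 and 52.6 CPM in SCC-9. Detroit 562 was below 1 CPM in every control, and the FaDu libraries were spread widely through replicate 3. The log2 difference of Detroit 562 from FaDu was -8.28 (SE 1.12, adjusted p = 4.14e-06) and from SCC-9 -6.31 (SE 1.09, adjusted p = 5.55e-05). HERC5 had 1.63, 1.44 and 1.75 CPM in Detroit 562, 36.5, 30.3 and 70.8 CPM in FaDu and 10.2, 11.5 and 12.1 CPM in SCC-9. The lines did not overlap, with log2 differences of Detroit 562 of -4.83 from FaDu and -2.81 from SCC-9. OASL had 6.13, 6.27 and 5.95 CPM in Detroit 562, 80.8, 74.9 and 166 CPM in FaDu and 5.72, 6.87 and 8.56 CPM in SCC-9. Here SCC-9 overlapped Detroit 562, and FaDu alone was high (log2 difference of Detroit 562 from FaDu -4.13, adjusted p = 6.06e-09). RSAD2 and IFI44 were lower in Detroit 562 than in FaDu by log2 differences of -4.10 and -4.00.

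SAMD9L and EPSTI1 were the 2 genes higher in untreated Detroit 562 than in FaDu. SAMD9L stood at 28.5 to 37.8 CPM in Detroit 562, 14.0 to 16.2 in FaDu and 5.88 to 8.87 in SCC-9, with no overlap (log2 differences of Detroit 562 of 1.18 and 2.15, adjusted p = 2.31e-05 and 2.56e-08). EPSTI1 had a log2 difference of 0.86 from FaDu (adjusted p = 0.0156) and its replicate 3 values of 7.94 and 9.41 CPM overlapped. Detroit 562 was also above SCC-9 for IFI44L, BST2, OAS1 and IFI35, by log2 differences of 2.49, 1.87, 1.76 and 1.41, and below it for IFI6 and DDX58, by -2.80 and -2.36.

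BST2 separated SCC-9 from FaDu most. It had 38.4, 38.4 and 43.4 CPM in FaDu and 0.359, 1.14 and 1.20 CPM in SCC-9, a log2 difference of -5.48 (SE 0.286, adjusted p = 2.63e-11), with no overlap. OASL, IFI44L, IFIT3 and DHX58 were lower in SCC-9 than in FaDu by log2 differences of -3.93, -3.79, -2.45 and -2.38. SP110, PARP12, DDX58, IFIH1 and STAT2 were higher in SCC-9, by 1.35, 1.29, 1.17, 0.95 and 0.94. IRF1 was level across the untreated lines: 46.6 to 68.6 CPM in Detroit 562, 52.3 to 56.4 in FaDu and 48.4 to 53.5 in SCC-9. Its 3 pairwise differences of 0.16, 0.25 and -0.09 had SEs of 0.143 each and adjusted p of 0.332, 0.121 and 0.567. Per kilobase of exon in the later GENCODE 44 annotation, with reads in introns counted as well, IFITM2 led the list in untreated Detroit 562 with 49.6 CPM per kb, ISG15 in FaDu with 124 and IFITM3 in SCC-9 with 128, and MX2 was last in each line.

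**Figure D4:**
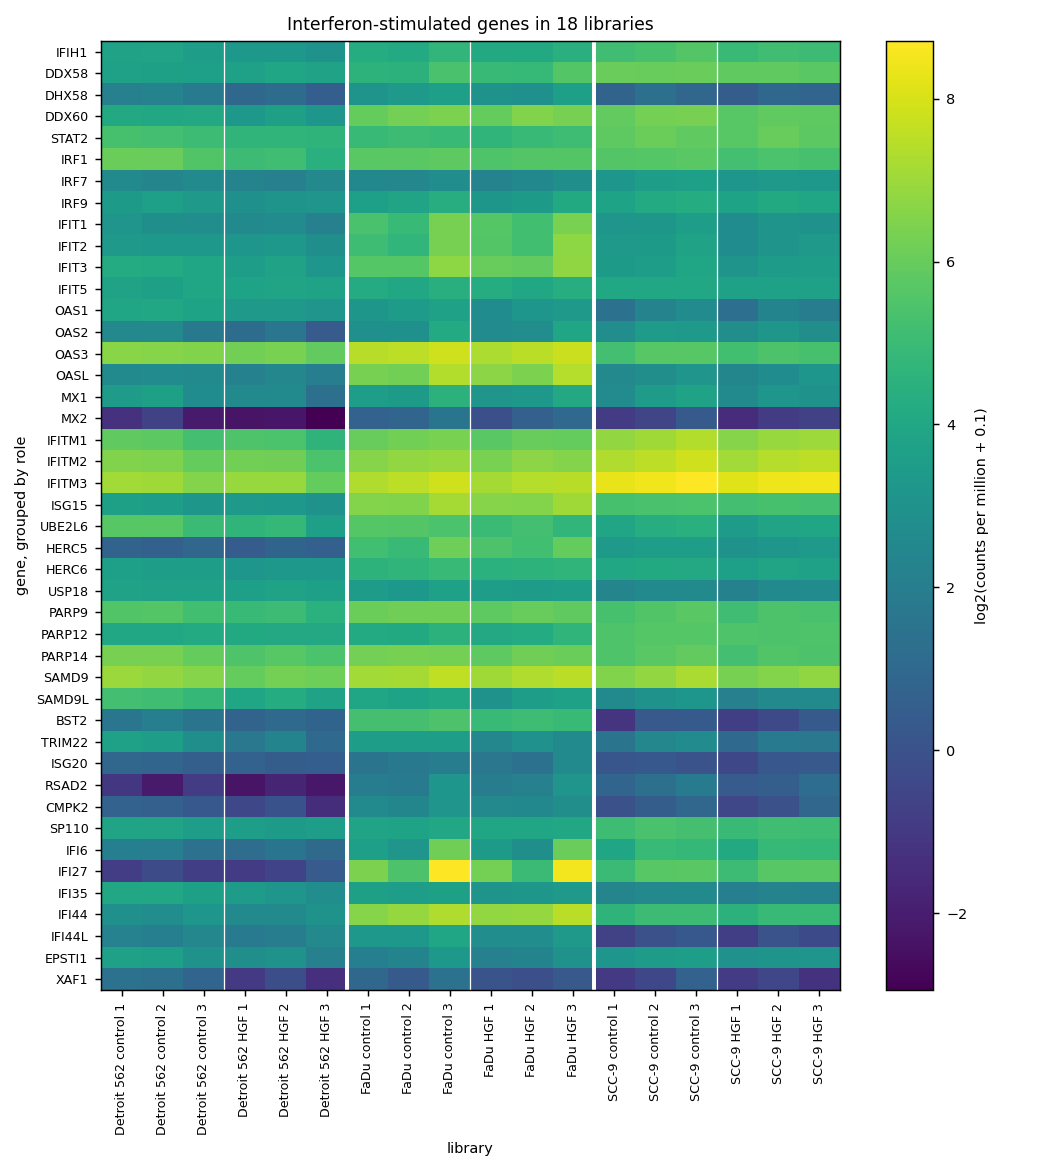
Level of the 44 interferon-stimulated genes (rows, grouped by role) in the 18 libraries (columns), as log2 of CPM plus 0.1, from dark for low to yellow for high. Thick white lines separate the cell lines and thin ones control from HGF. IFI27 is dark in Detroit 562, where no control reached 1 CPM, and brightest in FaDu replicate 3.

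The median within-group SD of log2 CPM, a measure of the spread between replicates, was 0.192 to 0.295 over the 44 genes in the 6 groups, against 0.0915 to 0.161 over all genes. In FaDu, replicate 3 was the highest of 3 in both the control and the HGF group for 33 of the 44 genes, against 21.2% of all genes. For 14 of them it was more than 1.5-fold over the mean of replicates 1 and 2 in both groups. That fold was not counted over all genes. IFI6 in FaDu controls had 12.4, 8.66 and 73.0 CPM and with HGF 10.5, 7.19 and 65.1 CPM. Replicate 3 was 7.04-fold above the mean of the other two in the controls and 7.48-fold with HGF. For IFI27 the folds were 6.71 and 7.32, and for IFIT2 2.68 and 2.56. UBE2L6 did not share this, as the 1 gene with replicate 3 the lowest in both FaDu groups, against 23.3% of all genes. In Detroit 562, replicate 3 was the lowest in both groups for 26 genes, against 27.2% of all genes, and the highest in both for 2, against 27.5%. In SCC-9 it was the highest in both for 17, against 19.4%, and the lowest in both for none, against 16.1%. For IFI6 in FaDu the log2 fold change with HGF was -0.19, which turned on single libraries, and leaving out 1 library moved it between -1.82 and 1.39. Without both FaDu libraries numbered 3, edgeR called 23 of the 44 genes lower in Detroit 562, none in FaDu, and 25 lower in untreated Detroit 562 than in untreated FaDu. The share of all genes was not recorded for that fit, so these counts have no background beside them.

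**Figure D5:**
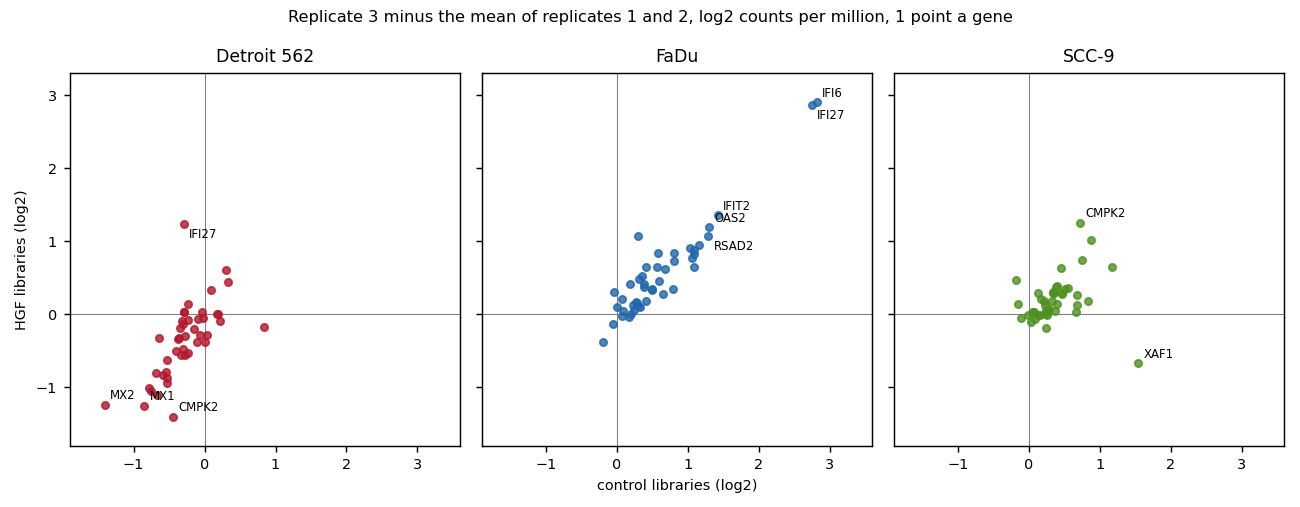
Replicate 3 minus the mean of replicates 1 and 2 in log2 CPM, in control libraries (horizontal axis) and HGF libraries (vertical axis), 1 point for each of the 44 genes. In FaDu most points lie to the upper right, with IFI6 and IFI27 farthest out, and in Detroit 562 most lie to the lower left.

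Other genes of the pathway were taken from a list of 56, of which 45 passed the filter. In Detroit 562, 2 were called higher and 7 lower, near the 6.16% and 11.7% of all genes, with a median log2 fold change of -0.12, and in FaDu and SCC-9 none was called without the block. The feedback inhibitor SOCS3 had 21.0, 17.7 and 23.4 CPM in Detroit 562 controls and 37.1, 35.6 and 36.0 CPM with HGF. All treated libraries were above all controls (log2 fold change 0.81, adjusted p = 0.0354). MB21D1, which encodes the DNA sensor cGAS, rose by 0.50 on the log2 scale (adjusted p = 0.0128). TLR3, an endosomal sensor of double-stranded RNA, had 39.8, 36.8 and 28.8 CPM in controls and 17.3, 18.7 and 11.7 CPM with HGF, without overlap (log2 fold change -1.14, adjusted p = 0.0027). Among the others called lower were IFNGR1, a receptor chain for interferon gamma (-0.47), NMI (-0.42), DTX3L (-0.42) and IRF5 (-0.44). Of the interferon genes listed, IFNE alone passed the filter, at 0.738 to 1.28 CPM in Detroit 562. Over all 18 libraries IFNA2 had 0 reads, IFNB1, IFNA1 and IFNG had 1 read each, IFNK had 7, and IFNL1, IFNL2 and IFNL3 had 56, 24 and 24.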

How the data were processed

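The deposited values are raw counts per gene, whole numbers without normalization. The authors made stranded mRNA libraries, sequenced them single-end on a NextSeq 500, removed adapters with Cutadapt, mapped with STAR 2.5.2b to GRCh38.p12 under a GENCODE annotation, and counted overlaps with gene extents in bedtools, so introns count and a read in overlapping genes on 1 strand counts for each. All count columns were mapped to samples by their labels, and the groups are line by treatment, 3 libraries each. Nothing says how far the replicates were separate cultures beyond the study's repeats of the experiment, so p-values measure the spread between these samples. The 44 genes, their roles, the pathway list and the motifs were chosen with earlier results of these data known.

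The main model was fitted with edgeR 4.0.16 in R 4.3.3 (filterByExpr, TMM, quasi-likelihood F test, 6 group means over 18 libraries, Benjamini-Hochberg over 15475 genes). The study itself used DESeq2. Calls required adjusted p under 0.1 with an absolute log2 step of 0.4 or more, and interactions the adjusted p alone. Calls with DESeq2 1.42.0, with other scaling, without the filter, within 1 line, and without each library were computed as alternatives, and counts without genes that share reads with an overlapping gene, or without both FaDu libraries numbered 3, were added after the data were seen. Genes given with the value of every library were, per HGF comparison, up to 8 called genes with the smallest p in each direction, and per comparison of untreated lines the 5 largest in each direction. A few further genes were given values after these were seen. The fits were tested on simulated counts.

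The replicate number was tested as a pairing by the deviations of libraries from their group means. Across genes, same-numbered libraries correlated at 0.116 to 0.511 in all 9 pairs, over the bar of 0.1 set for a pairing. The highest value between different numbers was 0.186, for Detroit 562 control 1 with HGF 2, and FaDu had 0.122 there. These passed the bar too, so the bar alone cannot establish the pairing. Over the interferon-stimulated genes, Detroit 562 control 1 with HGF 2 had 0.627, against 0.187 for pair 2. In SCC-9, control 3 with HGF 2 had 0.235, against 0.224 for pair 3. In FaDu the pairs had 0.717, 0.912 and 0.938, above 0.625 for control 1 with HGF 2. HGF calls made only with the block rest on this pairing. In the block fit each line had its own replicate effects. The alternative for untreated lines was another model, with a replicate term shared by all lines. Sequences are RefSeq promoters of GRCh38.p14. A few genes of the pathway and marker lists are counted but not reported by name here.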

Additional observations from a re-analysis of the deposited data

Results flagged for a closer look

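In 10 cases a gene moved in opposite directions in 2 lines, in 3 of 3 pairs of each. Such cases were not counted over all genes, so this count has no background beside it. For Detroit 562 minus FaDu, where these genes were lower with HGF in Detroit 562 and higher in FaDu, the difference in log2 response was -0.33 for IFI44, -0.62 for IFIT1, -0.78 for IFIT3 and -0.57 for OASL. The edgeR interaction gave adjusted p of 0.690, 0.605, 0.472 and 0.631 without the replicate block and 0.0275, 0.00542, 0.000472 and 0.00395 with it. For FaDu minus SCC-9, where the following genes were higher with HGF in FaDu and lower in SCC-9, the difference was 0.24 for IFI44, 0.53 for IFIT1, 0.87 for IFIT2, 0.46 for IFIT3 and 0.53 for DDX58. IFI27 went the other way, with a difference of -0.20. Without the block each of these 6 had an adjusted p of 1.00, and with it the values were 0.212 for IFI44, 0.051 for IFIT1, 0.00218 for IFIT2, 0.0606 for IFIT3, 0.00693 for DDX58 and 0.436 for IFI27. These genes are also among those whose level in FaDu was highest in replicate 3 of both groups, and the part of that replicate in the differences was not tested. The SCC-9 steps of IFI27 were small, from 31.9 to 32.8, from 51.3 to 51.7 and from 52.6 to 53.1 CPM.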

How the results depend on the processing

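In Detroit 562 and the mean of the lines, no alternative run called a gene of the list higher. Leaving out 1 library moved the genes called lower to between 13 and 23 in Detroit 562, against 6.67% to 14.2% of all genes. For the mean of the lines it gave 8 to 17, against 3.59% to 6.24%. Each interaction of Detroit 562 had 0 to 2, against 0.0128% to 1.22% for FaDu and 0.0576% to 3.39% for SCC-9. With the replicate block, which pairs control and HGF libraries, FaDu had 1 gene called higher and 7 lower, against 2% and 3.6% of all genes. SCC-9 had 5 lower, against 1.41%. Detroit 562 minus FaDu had 1 higher and 26 lower, against 10.1% and 8.98%. Detroit 562 minus SCC-9 had 2 higher and 20 lower, against 13.8% and 13.2%. FaDu minus SCC-9 had 4 higher, against 0.808%. In Detroit 562 the block changed no call of the genes given per library. Between untreated lines a replicate term shared by the lines took its place, and it changed no call of those genes. Among alternatives chosen after seeing the data, leaving out both FaDu libraries numbered 3 gave 23 lower in Detroit 562 and 13 for the mean of the lines. It gave none in FaDu or SCC-9 and 1 higher for Detroit 562 minus SCC-9, and shares of all genes were not recorded. Leaving out members that share reads with an overlapping gene kept counts of 20 and 14, as none of those left out had been called there. Between untreated lines it gave 26 in place of 29 genes lower in Detroit 562 than in FaDu, where 29.8% of all genes were. Against SCC-9 it gave 17 in place of 20, where 33.9% of all genes were lower. In SCC-9, 8 in place of 10 were higher than in FaDu, where 33.5% of all genes were. The other untreated counts did not change. DESeq2, with or without its prior, called 3 lower for Detroit 562 minus FaDu and 2 lower for Detroit 562 minus SCC-9. With the prior it called 1% and 2.2% of all genes lower there. The log2 fold change of IFIT2 in FaDu, 0.44, reversed to -0.15 without FaDu HGF replicate 3 and ranged up to 1.07 without FaDu control replicate 3. Of the other genes chosen by the rule for values per library, none reversed in any alternative run. The remaining genes were recomputed only with the block, DESeq2 and each library left out. Genes at a few reads per library, such as MX2, RSAD2 and IFI27 in Detroit 562, have wide errors at this depth, and 3 libraries a group cannot reach an exact permutation p below 0.1. The cause of these changes was not tested.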
